A study of Mus musculus with 12 samples.

Results

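The Dlk1-Dio3 region of mouse chromosome 12 is an imprinted domain, in which a gene is transcribed mainly from the copy inherited from one parent. Its protein-coding genes Dlk1, Rtl1 and Dio3 are read from the paternal chromosome. Its long noncoding RNAs Meg3, Rian and Mirg, and the dense row of microRNA hairpins that they carry or neighbour, are read from the maternal chromosome. Dlk1 encodes preadipocyte factor 1, a transmembrane protein that holds back the differentiation of preadipocytes. The microRNAs of the domain are best known from the embryo, placenta and brain. MiR-127, miR-136, miR-431, miR-433 and miR-434 lie antisense to Rtl1 and direct the cutting of its messenger RNA.

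The 60 microRNA assays described here are those whose microRNA number is 1 of 46 numbers assigned to this cluster, out of 504 microRNA assays in the data. Of the 46 numbers, 40 were measured and 6 had no assay. The 60 assays cover 41 hairpins, of which 19 were measured on both the 5p and the 3p arm. All 41 hairpins had a position in RefSeq (GRCm38.p6), all on the plus strand of chr12:109563692-109743795, a span of 180.1 kb. In 59 of the 60 assays every pool gave a value, and the exception was miR-494, which was missing in 2 pools.

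Epididymal fat pads of male wild-type C57BL/6J mice were profiled by RT-PCR in 4 groups, each of 3 pools made from 12 mice. The control group (CD) received a purified diet with 10% of its energy as fat, 70% as carbohydrate and 20% as protein. The high-fat diet held 45% fat, 35% carbohydrate and 20% protein, and reached the UT group in utero through the dam, the UL group from mating until weaning, and the WL group from mating until termination at 23 weeks. The study groups held 22 mice from 17 litters (CD), 27 from 17 (UT), 25 from 19 (UL) and 23 from 21 (WL). No transgene or gene deletion is named for any group. The sources used here do not give the diet of the UT and UL groups after exposure, how each pool was composed or the litters behind it, so the p-values measure the spread between pools. The tissue is a mixture of adipocytes and other cells, and fewer cells of a type cannot be told apart from less microRNA per cell.

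The measurement was the threshold cycle (Ct), the PCR cycle at which the signal crosses a set level, so a lower Ct stands for more template. For each pool, the relative level of a microRNA is its distance from the average of the 466 microRNAs with a value in every pool: that average Ct minus the microRNA's own Ct. It is in cycles, on the log2 scale, and is above 0 where the signal came earlier than that average. The scale mean was alike in all pools, at 24.57 to 25.06 cycles. UT 2 and WL 3 had the largest spread of all microRNAs around their group means, with SDs of 0.85 and 0.98 cycles against 0.39 in UL 3.

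Mature sequences were taken from RefSeq (GRCm38.p6), which held one for 53 of the 60 assays. They are written 5′ to 3′ with bases 2 to 8, the seed that pairs with target messenger RNAs, in capitals. For 10 assays whose names give no arm, the arm was taken as the one the other assay of the hairpin does not name (3p for miR-376a, miR-376b, miR-377, miR-381, miR-410, miR-412, miR-494 and miR-543, and 5p for miR-379 and miR-541). For miR-382, miR-409, miR-411, miR-431, miR-539 and miR-540 the arm is not named. The first set holds members named in the diet comparisons below, with the other arm of the hairpin where RefSeq held it. Of them, only miR-494 and miR-758-5p had an adjusted p under 0.05 in a comparison.
miR-494: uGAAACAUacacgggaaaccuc
miR-494-5p: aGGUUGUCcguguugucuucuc
miR-758-5p: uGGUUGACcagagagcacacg
miR-758-3p: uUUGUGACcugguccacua
miR-377-5p: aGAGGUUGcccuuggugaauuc
miR-377: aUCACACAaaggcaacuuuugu
miR-329-5p: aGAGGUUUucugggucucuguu
miR-329-3p: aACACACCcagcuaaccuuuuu
miR-485-3p: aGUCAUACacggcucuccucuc
miR-376b-5p: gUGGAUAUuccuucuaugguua
miR-376b: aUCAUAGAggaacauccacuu
miR-154-5p: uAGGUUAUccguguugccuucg

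The cluster shared little seed sequence between members, although many hairpins resemble each other. Among the 53 sequences only miR-410-5p and miR-494-5p had the same 7-base seed, GGUUGUC. MiR-376a and miR-376b differed at 3 of 21 bases compared from the 5′ end, miR-300-3p and miR-381 at 3 of 22, miR-379-3p and miR-758-3p at 3 of 19, and miR-495-3p and miR-543 at 4 of 22. The labels do not state how far the assays tell such close sequences apart. A feature of the 5p arms was a seed that starts with GGU at bases 2 to 4. It was present in 8 of 26 5p members (30.77%) and in 0 of 27 3p members. Beside them stood 17 of 671 other 5p microRNAs of the RefSeq table (2.53%) and 33 of 1626 others of either arm (2.03%). Cluster arms that were not measured or whose assay names no arm were not taken out of these others. The microRNAs of a single chromosome other than that of the cluster were left out of them. The motif was picked after the sequences had been read, and hairpins that arose by duplication share sequence, so these shares are a description. Of the 8, 7 lay in the stretch from miR-379 to miR-410. They are shown with miR-341-5p, the exception, because both microRNAs of the first set with a GGU seed, miR-494-5p and miR-758-5p, belong to them.
miR-341-5p: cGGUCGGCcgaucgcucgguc
miR-379: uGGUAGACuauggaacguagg
miR-299a-5p: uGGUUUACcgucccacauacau
miR-487b-5p: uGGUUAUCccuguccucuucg
miR-412-5p: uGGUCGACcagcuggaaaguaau
miR-410-5p: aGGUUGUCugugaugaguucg

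In chromosome order the hairpins fall into 3 stretches. The first, with 14 assays, runs from miR-770 inside Meg3 (chr12:109540996-109571729) through the hairpins that overlap Rtl1 (chr12:109564900-109604418). The second has 3 assays and overlaps Rian (chr12:109603945-109661716). The third has 43 assays and runs from miR-379 to miR-410. It is called the Mirg stretch here, although it begins at 109709060, before the start of RefSeq's Mirg (chr12:109734981-109749458).

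The cluster was detected in this fat depot in a range of 14.79 cycles, with most members later than the average microRNA. The median relative level of its 60 members over the pools was -1.72, beside -0.26 for all 504 microRNAs, and 20 members (33.3%) lay above 0, beside 240 of 504 (47.6%). The stretch around Meg3 and Rtl1 had a median of 0.99, the Rian stretch 1.70 and the Mirg stretch -2.32. The median of the 27 microRNAs of 5p arms was -1.99, and that of the 27 of 3p arms was -0.66. Levels of different assays are comparable only if the assays amplify alike, a point on which the labels are silent.

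**Figure D1:**
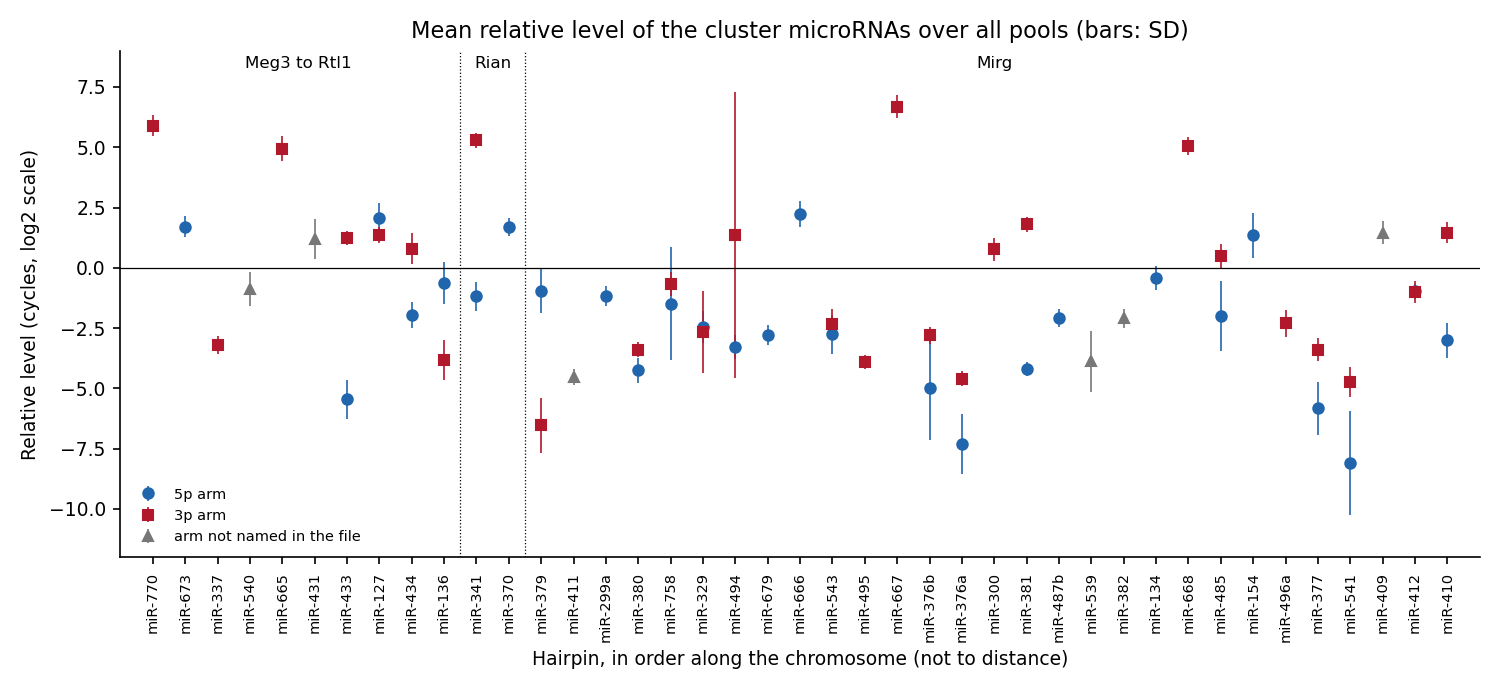
Mean relative level (vertical axis, cycles on the log2 scale) of the 60 cluster microRNAs over all pools, with bars for the SD over pools, by hairpin in chromosome order (horizontal axis, not to distance). Circles are 5p arms, squares 3p arms and triangles assays with no arm named. Levels run from -8.10 (miR-541) to 6.69 (miR-667-3p), and miR-494 has the widest bar.

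A few 3p microRNAs stood at the top, in all 4 groups. MiR-667-3p had the earliest Ct of the cluster, with a relative level of 6.69 ± 0.49 (SD, n = 12 pools), and ranked 20 among the 504 microRNAs. Its mean was 6.54 ± 0.62 in the CD pools, 7.13 ± 0.35 for UT, 6.77 ± 0.30 for UL and 6.30 ± 0.38 for WL (SD, n = 3 pools). These ranges overlapped between CD and each high-fat group. MiR-770-3p, the first hairpin of the cluster, followed at 5.88 ± 0.44, with group means of 5.81 to 6.06. MiR-341-3p lay at 5.28 ± 0.33, and its WL pools (4.84, 4.75 and 5.26) all lay below its CD pools (mean 5.38 ± 0.08), a difference of -0.43 (SE 0.31, adjusted p = 0.873). MiR-668-3p (5.05 ± 0.37), miR-665-3p (4.94 ± 0.52) and miR-666-5p (2.23 ± 0.56) completed the highest 6, and none of the 6 passed the test in any high-fat group against CD. Only 3 members ranked among the 50 earliest microRNAs of the data.
Their sequences are given because they had the highest mean relative levels over all pools. In single groups the order differed, and miR-494 was at 4.98 in UL and 5.21 in WL. It lay there above miR-668-3p (4.92 and 5.04), miR-665-3p (4.83 and 4.69) and miR-666-5p (2.51 and 2.16). In WL it also lay above miR-341-3p (4.95). In UT, miR-431, at 2.11, was among the members above miR-666-5p, at 1.90.
miR-667-3p: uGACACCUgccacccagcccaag
miR-770-3p: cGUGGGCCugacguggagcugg
miR-341-3p: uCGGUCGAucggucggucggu
miR-668-3p: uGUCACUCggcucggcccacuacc
miR-665-3p: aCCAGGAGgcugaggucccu
miR-666-5p: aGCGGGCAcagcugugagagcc

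At the low end, miR-541 lay at -8.10 ± 2.15, miR-376a-5p at -7.31 ± 1.25 and miR-379-3p at -6.53 ± 1.13 (SD, n = 12 pools). These members were measured at late cycles, and 5 members had a mean Ct of 30 or later. The spread of miR-541 was wide inside each group, with an SD of 1.02 in UL and 3.49 in CD. It differed from CD by -0.23 (WL), 0.42 (UL) and -0.07 (UT) (SE 1.73 each). Over the whole cluster the median SD within groups was 0.49 cycles, beside 0.53 for all microRNAs.

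Of the 19 hairpins with both arms measured, the 3p arm had the earlier mean Ct in 14 and the 5p arm in 5, with a median size of the difference of 2.71 cycles. In 10 hairpins the same arm was earlier in every pool. The 5p minus 3p difference was -6.67 ± 0.71 for miR-433, -6.46 ± 0.78 for miR-341 and -6.00 ± 0.41 for miR-381 (SD, n = 12 pools). MiR-379 and miR-136 had the opposite preference, at 5.58 ± 1.41 and 3.17 ± 0.94. MiR-127, which directs the cutting of Rtl1 messenger RNA, had arms close to each other, at 2.08 ± 0.59 for the 5p arm and 1.36 ± 0.33 for the 3p arm. For miR-485 the 3p arm was earlier in 11 pools and the 5p arm in WL 3 alone, by 1.27 cycles.

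**Figure D2:**
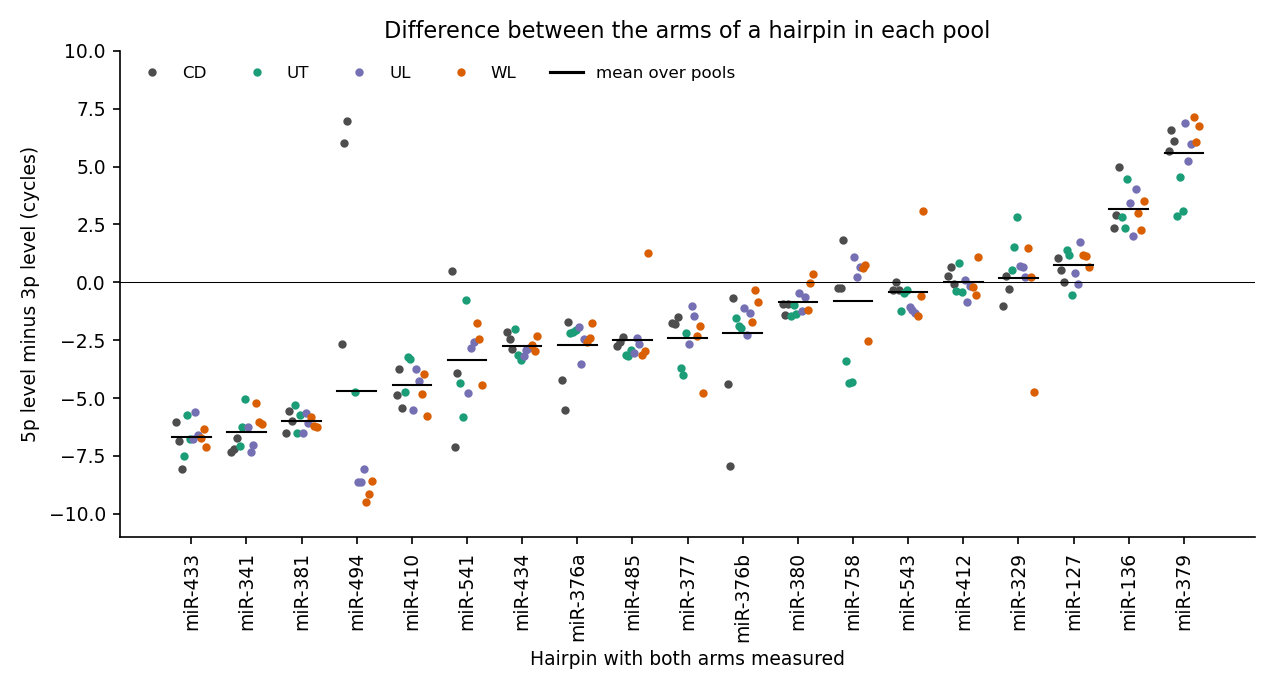
Difference between the relative levels of the 5p and 3p arms (vertical axis, cycles) for the 19 hairpins with both arms measured (horizontal axis). Each point is a pool, coloured by group, and the black line is the mean over pools. For miR-433, miR-341 and miR-381 every pool lies below 0, for miR-136 and miR-379 every pool lies above 0, and the points of miR-494 and miR-758 lie on both sides of 0.

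The first comparisons set WL, on the high-fat diet until termination, and UL, exposed until weaning, each against CD. In both, miR-494 was the member that passed the test, with a higher level than in CD, and the other 59 did not pass. MiR-494 is a 3p microRNA of the Mirg stretch, with its hairpin at chr12:109715318-109715402. Its Ct was 25.11, 34.04 and 34.37 in the CD pools, 20.00, 19.82 and 20.04 in UL and 19.62, 19.60 and 19.94 in WL. UT 3 gave 22.99, and UT 1 and UT 2 gave no value. The relative levels were -0.31, -9.25 and -9.48 in CD, 2.07 in UT 3, 4.96, 5.15 and 4.83 in UL, and 5.28, 5.31 and 5.05 in WL. The 6 UL and WL pools, between 4.83 and 5.31, all lay above the CD pools, which were split, with CD 1 far above CD 2 and CD 3.

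The difference of WL from CD was 11.56 on the log2 scale, with an SE of 1.99 (adjusted p = 0.0374). In WL 1 of 60 members was thus called, beside 0.595% of all 504 microRNAs. The UL difference was 11.33, also with an SE of 1.99 (adjusted p = 0.0435), and again 1 of 60 members was called beside 0.595% of all microRNAs. These comparisons share the CD pools and a spread pooled over the 4 groups, although the SD was 5.23 in CD, 0.16 in UL and 0.14 in WL. With the 2 groups alone the WL difference had an SE of 2.40 and did not pass (adjusted p = 0.209). The UL call was also lost with the 2 groups alone. For UT the single measured pool, UT 3, gave a difference of 8.42, a value without replicates. With the missing values of UT 1 and UT 2 set to the highest Ct, the UT difference was -1.26. Without CD 1 the differences were 14.58 in WL (adjusted p = 1.67e-08) and 14.35 in UL (adjusted p = 1.91e-08). Without CD 2 they were 10.11 (adjusted p = 0.124) and 9.88 (adjusted p = 0.144), and without CD 3 they were 9.99 (adjusted p = 0.068) and 9.76 (adjusted p = 0.0692).
The WL call was also lost without any 1 of the UL or WL pools (adjusted p 0.0578 to 0.176) and kept without UT 1, UT 2 or UT 3. The UL call was lost without UT 1, any UL pool, WL 1 or WL 2 (adjusted p 0.0503 to 0.227) and kept without UT 2, UT 3 or WL 3. Over all 28 other settings in which miR-494 could be fitted, the WL call was kept in 13 (adjusted p 1.67e-08 to 0.363) and the UL call in 14 (adjusted p 1.91e-08 to 0.721).

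The other arm of the hairpin and the neighbouring hairpins did not share the pattern of miR-494. MiR-494-5p had relative levels of -2.96, -3.22 and -2.53 in CD, -2.91, -3.03 and -2.67 in UT, -3.68, -3.49 and -3.22 in UL, and -4.20, -3.84 and -3.53 in WL. All WL pools lay below all CD and UT pools, by a difference of -0.95 from CD (SE 0.30, adjusted p = 0.313), and the UL difference was -0.56 (SE 0.30, adjusted p = 0.995). The hairpin of miR-679 lies 174 bases downstream, and miR-679-5p had a mean of -3.05 for CD, -2.66 for UT, -2.63 for UL and -2.78 for WL. The hairpin of miR-329 lies 1740 bases upstream, and its arms are described with the in utero comparison. The 5p minus 3p difference of miR-494 was 3.44 in CD, -4.74 in the single UT pool, -8.44 in UL and -9.07 in WL.

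Among members that did not pass in WL, miR-485-3p, from a hairpin studied in synapses, had levels of -0.57, 0.26 and -0.04 in CD and 0.86, 0.60 and 1.21 in WL. Its ranges did not overlap, and the difference was 1.00 (SE 0.31, adjusted p = 0.313). MiR-485-5p was at -2.70 ± 0.56 in CD, and its WL pools were at -2.29, -2.35 and 2.48, so that WL 3 alone stood out. MiR-154-5p had a difference of -1.73 in WL (SE 0.57, adjusted p = 0.313), with pools at -1.15, 1.62 and 0.52 beside a CD mean of 2.06 ± 0.54. WL 1 was its lowest pool, and without it the difference was -0.99 (adjusted p = 0.434).

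MiR-376b-5p comes from the miR-376 hairpins, which are known for A-to-I editing of their precursors in brain. Its levels were -7.18, -11.11 and -4.02 in CD, -4.27, -4.47 and -4.78 in UT, -4.11, -4.51 and -3.84 in UL, and -4.04, -3.55 and -3.85 in WL. CD 3 lay among the high-fat pools and CD 1 and CD 2 lay below them all. The Ct of CD 1 and CD 2 was late, at 31.98 and 35.9, against 28.91 in CD 3. The difference was 3.62 in WL (SE 1.25, adjusted p = 0.393), 3.28 in UL (SE 1.25, adjusted p = 0.995) and 2.93 in UT (SE 1.25, adjusted p = 0.446). Without CD 3 it passed in WL (5.33, adjusted p = 0.00825) and in UL (4.99, adjusted p = 0.0177), and without CD 2 it was 1.79 and 1.45. With CD 3 left out, only the late readings of CD 1 and CD 2 remained on the CD side. The 3p arm, miR-376b, had a mean of -3.10 for CD, -2.69 for UT, -2.59 for UL and -2.84 for WL. MiR-376a-5p, in the next hairpin, was also lowest in CD, at -8.47 ± 1.94, with -6.84 ± 0.52 in UT, -7.28 ± 1.2 in UL and -6.66 ± 0.42 in WL, and passed in none of the 3 comparisons. Its Ct was late too, at 33.63, 35.0 and 31.26 in CD 1 to 3 and 33.62 in UL 2.

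In UL, miR-540 had a mean of -0.31 ± 0.10, above -1.35 ± 0.78 in CD (difference 1.03, SE 0.54, adjusted p = 0.995), and without CD 2 the difference was 0.63. MiR-380-3p lay at -3.64 ± 0.09 in UL and -3.12 ± 0.37 in CD (difference -0.51, SE 0.30, adjusted p = 0.995), and its other arm, miR-380-5p, at -4.42 ± 0.32 and -4.23 ± 0.27. Scaled to the reference RNA RNU-43, the UL difference of miR-380-3p was -0.15 and that of miR-494-5p -0.19. The UL and CD ranges did not overlap for miR-540 or miR-380-3p. Of all 60 members 7 had such ranges in UL (11.7%), 5 higher and 2 lower, beside 7.88% of all microRNAs. In WL there were 10 (16.7%), 5 higher and 5 lower, beside 11% of all.

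**Figure D3:**
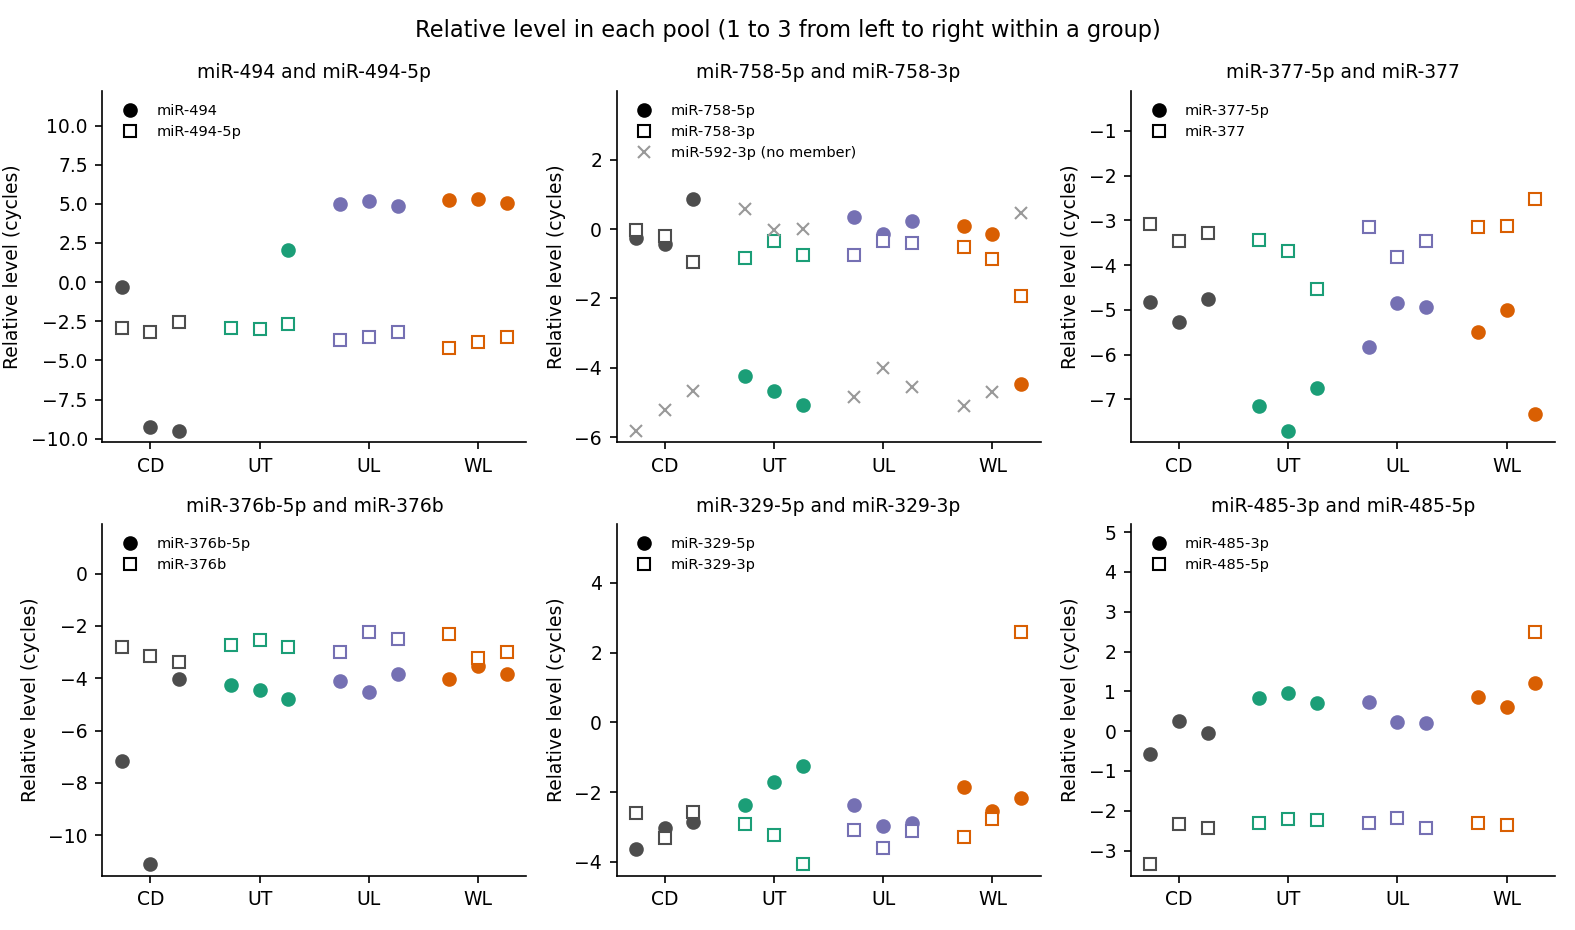
Relative level (vertical axis, cycles) in each pool of 6 hairpins' arms, by group (horizontal axis; pools 1 to 3 from left to right). Filled circles and open squares are the arms named above each panel, and grey crosses in the second panel are miR-592-3p, which is no member of the cluster. MiR-494 is high in all UL and WL pools, and miR-758-5p is low in UT 1 to 3 and WL 3, where miR-592-3p is high.

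The in utero comparison set the UT group, exposed in utero through the dam, against CD at termination. The diet of UT after this exposure is not given. In UT, miR-758-5p was the member that passed, and it was lower than in CD. Its hairpin lies at chr12:109712810-109712890, also in the Mirg stretch. The relative levels were -0.25, -0.45 and 0.87 in CD, -4.24, -4.67 and -5.06 in UT, 0.35, -0.15 and 0.23 in UL, and 0.10, -0.14 and -4.48 in WL. UT lay below CD and UL without overlap, and WL 3 lay with the UT pools while WL 1 and WL 2 lay with CD. The difference of UT from CD was -4.71 (SE 0.96, adjusted p = 0.0402). In UT 1 of 60 members was called, beside 1.39% of all microRNAs, of which 0.198% were called lower and 1.19% higher. The UL group lay 4.80 above UT (SE 0.96, adjusted p = 0.0607) and WL 3.15 above UT (SE 0.96, adjusted p = 0.192), and neither passed. The call was kept without WL 1, WL 2 or WL 3 (adjusted p 0.0257, 0.0308 and 2.91e-05) and lost without any 1 of the CD, UT or UL pools (adjusted p 0.0587 to 0.159).

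Another assay moved oppositely in the same 4 pools. MiR-592-3p, which does not belong to the cluster, had levels of -5.81, -5.22 and -4.66 in CD, 0.57, -0.02 and 0.01 in UT, -4.85, -4.0 and -4.55 in UL, and -5.10, -4.70 and 0.46 in WL. In UT it differed from CD by 5.42 (SE 1.12, adjusted p = 0.0402). With the values of miR-592-3p and miR-758-5p exchanged in UT 1 to 3 and WL 3, the UT difference of miR-758-5p was 0.13 (adjusted p = 0.945, the highest over its 29 other settings, of which 15 kept the call). The assay and the pools of this exchange were picked for their opposite values, so the small difference is no independent check. Whether the assays had been exchanged was not tested. The 3p arm of the hairpin did not follow the 5p arm. MiR-758-3p lay at -0.02, -0.22 and -0.96 in CD, -0.83, -0.34 and -0.74 in UT, -0.74, -0.36 and -0.42 in UL, and -0.50, -0.88 and -1.94 in WL, and the groups overlapped (UT difference -0.24, SE 0.40, adjusted p = 0.898).

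MiR-377-5p, from a hairpin whose 3p microRNA has been studied in kidney mesangial cells, had the same 4 lowest pools as miR-758-5p without passing the test. Its levels were -4.83, -5.28 and -4.76 in CD, -7.14, -7.70 and -6.74 in UT, -5.83, -4.85 and -4.93 in UL, and -5.48, -5.0 and -7.32 in WL. The UT pools and WL 3 lay below all others. The UT difference was -2.24 (SE 0.55, adjusted p = 0.0758). It passed in 6 of 28 other settings (adjusted p 0.00577 to 0.27 over all), among them without WL 3 (adjusted p = 0.00577) and without WL 2 (adjusted p = 0.0499). The other arm, miR-377, had -3.89 ± 0.58 in UT and -3.28 ± 0.19 in CD (difference -0.61, SE 0.35, adjusted p = 0.612).

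MiR-329-5p, from a hairpin linked to dendrite growth in neurons, lay higher in every UT pool (-2.37, -1.72 and -1.25) than in every CD pool (-3.64, -3.05 and -2.87). The difference was 1.41 (SE 0.37, adjusted p = 0.0926), and in WL it was 1.00 (SE 0.37, adjusted p = 0.432). Scaled to U6-snRNA and RNU-43 in the 10 pools with both, the UT difference was 2.11 and passed (adjusted p = 0.0217), and scaled to RNU-43 alone it was 2.15 (adjusted p = 0.0584). The 10 pools leave out WL 3 and UT 1, the lowest UT pool of miR-329-5p. Under these scalings the median UT difference of all microRNAs was 0.37 and 0.73. The other arm, miR-329-3p, was at -3.40 ± 0.60 in UT and -2.83 ± 0.41 in CD, and its WL pools were at -3.30, -2.78 and 2.58. MiR-485-3p in UT was at 0.83 ± 0.13, a difference of 0.95 from CD (SE 0.31, adjusted p = 0.28), or 1.69 scaled to RNU-43 (adjusted p = 0.0741). MiR-379-3p, 1 of the 3 lowest members, lay at -5.20 ± 0.83 in UT and -7.02 ± 0.39 in CD (difference 1.82, SE 0.64, adjusted p = 0.333), and WL 3 was again near UT, at -5.13. Non-overlapping ranges between UT and CD occurred in 13 of 59 members (22%), 7 higher and 6 lower, beside 14% of all microRNAs.

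Some marker lists of the tissue and of other cell types had median differences away from 0 in UT. The 27 assays of adipocyte and fat stroma had a median difference of -0.31 in UT, with 7 of 27 above 0, and none passed the test. Their summed level ranged from 9.69 to 10.07 in CD and from 9.55 to 9.73 in UT. The 8 epithelial assays had a median difference of -2.16 in UT, with 0 of 8 above 0, and none passed the test. Their summed level ranged from 4.53 to 7.21 in CD and from 3.24 to 5.30 in UT. The same list had a median of 2.11 for UL against UT and 2.61 for WL against UT. The 10 assays of testis and epididymis, organs next to this depot, had a median difference of 1.05 in UT, with 9 of 10 above 0, and none passed. Their summed level, which the assays with the earliest Ct dominate, ranged from 4.81 to 5.82 in CD and from 4.26 to 5.45 in UT. The 7 leukocyte assays had a median difference of -0.68 in UT, with 3 of 7 above 0, and summed levels of 5.45 to 6.17 in CD and 4.25 to 5.48 in UT. Their part in the UT differences of the members was not tested.

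Over the cluster as a whole, the differences from CD had medians near those of all microRNAs. The median difference of the 60 members from CD was -0.05 in WL, 0.02 in UL and 0.09 in UT, and for all 504 microRNAs it was -0.06, -0.07 and -0.01. Above 0 were 24, 32 and 35 members (40%, 53.3% and 58.3%), beside 43.5%, 43.7% and 48.8% of all microRNAs. An unadjusted p under 0.05 was reached by 6 members in WL (10%, all microRNAs 7.14%), 2 in UL (3.33%, all 2.78%) and 10 in UT (16.7%, all 10.1%). With Ct scaled to RNU-43 the members' medians became -0.03 in WL, 0.38 in UL and 0.83 in UT, and those of all microRNAs -0.05, 0.30 and 0.73. A change of scale shifts every microRNA of a pool by the same amount, so this common shift follows from the scaling.

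**Figure D4:**
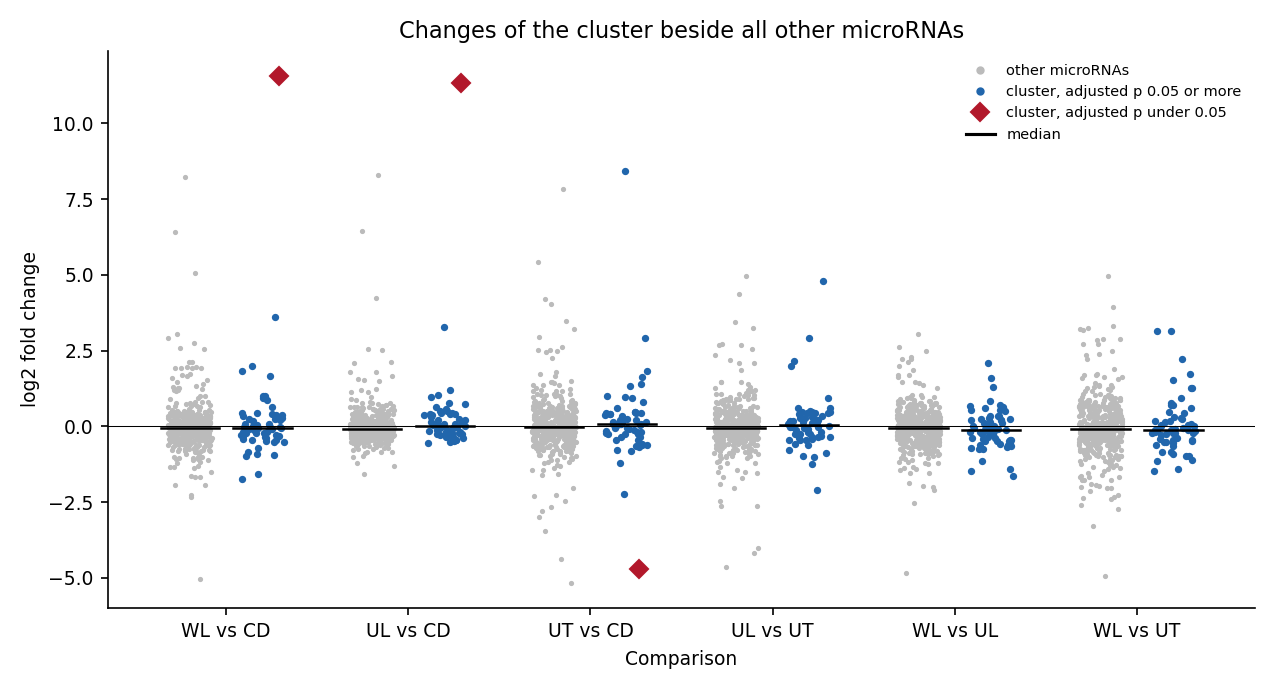
Log2 fold change (vertical axis) of every microRNA in each of 6 comparisons (horizontal axis; the first group minus the second). Grey points are microRNAs outside the cluster, blue points are members with an adjusted p of 0.05 or more, red diamonds are members that passed, and black lines are medians. The medians of members lie between -0.13 and 0.09, and the 3 red diamonds are miR-494 in WL and UL and miR-758-5p in UT.

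By stretch, the 14 assays around Meg3 and Rtl1 had median differences from CD of -0.06 for WL, 0.07 for UL and 0.18 for UT, with 0 called in each. The 3 assays of the Rian stretch had medians of -0.12, 0.06 and 0.08, with 0 called. The 43 assays of the Mirg stretch had medians of -0.03, -0.02 and 0.03, and the called members, miR-494 and miR-758-5p, lay in it. With 0.595%, 0.595% and 1.39% of all microRNAs called, these counts by stretch set no stretch apart. Other imprinted microRNAs were called in none of the 3 comparisons: the 19 assays of the Sfmbt2 cluster had medians of -0.04, -0.09 and 0.07, and 7 assays from other imprinted host genes had 0.04, -0.04 and -0.36.

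Between the high-fat groups no member passed the limma test, as was the case for all 504 microRNAs (0% called in each). An unadjusted p under 0.05 was reached by 8 members for UL against UT (13.3%, all 7.94%), 4 for WL against UL (6.67%, all 5.36%) and 8 for WL against UT (13.3%, all 15.7%). The F test over the 4 groups called 0 members beside 0.397% of all microRNAs, with 9 members at an unadjusted p under 0.05 (15%, all 9.92%), and miR-494 and miR-758-5p had the lowest adjusted p (0.0711 for both). The stretch around Meg3 and Rtl1 had median differences of 0.09 for UL against UT, -0.43 for WL against UL and -0.23 for WL against UT, beside -0.03, -0.05 and -0.09 for all microRNAs. In WL against UL, 3 of its 14 assays (21.4%) were above 0, beside 46.8% of all microRNAs. The Mirg stretch had 0.10, -0.0026 and -0.09, and the Rian stretch -0.04, -0.19 and -0.20. In WL against UL, miR-127-3p had the smallest unadjusted p of the stretch around Meg3 and Rtl1, with 1.01 ± 0.21 in WL and 1.71 ± 0.18 in UL and no overlap (difference -0.70, SE 0.28, adjusted p = 0.805). It and miR-136-5p, both of the hairpins antisense to Rtl1, were chosen for mention after their values had been seen. The WL pools of miR-136-5p lay at -1.16, -1.30 and -1.60, below all UL pools (difference -0.75, SE 0.64, adjusted p = 0.827). Non-overlapping ranges between WL and UL occurred in 7 of 60 members (11.7%), 3 higher and 4 lower, beside 9.88% of all microRNAs.

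Values far from a member's own median over the pools were few and sat in particular pools. Of all values, 26 in 15 of the 60 members lay over 2 cycles from that median. WL 3 held 7 of them, in 11.7% of the members, beside 8.48% of all microRNAs in that pool. There miR-329-3p lay 5.68 above its median, miR-485-5p 4.79, miR-379 2.67 and miR-543-5p 2.34 above it, and miR-758-5p, miR-541 and miR-539 lay below theirs. UT 3 held 5 (8.33%, all 6.81%), among them miR-431 (2.81 above) and miR-136-5p (2.46 above). CD 2 held 4 (6.67%, all 2.2%), all below the median and among them miR-376b-5p (-6.92) and miR-494 (-14.14), and CD 1 held 3 (5%, all 2.4%). The UL pools held 0, beside 0.199% to 0.398% of all microRNAs. The SD of the members around their group means ran from 0.26 cycles in UL 3 to 1.05 in WL 3. The part of these pools in the differences was not tested beyond leaving them out.

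**Figure D5:**
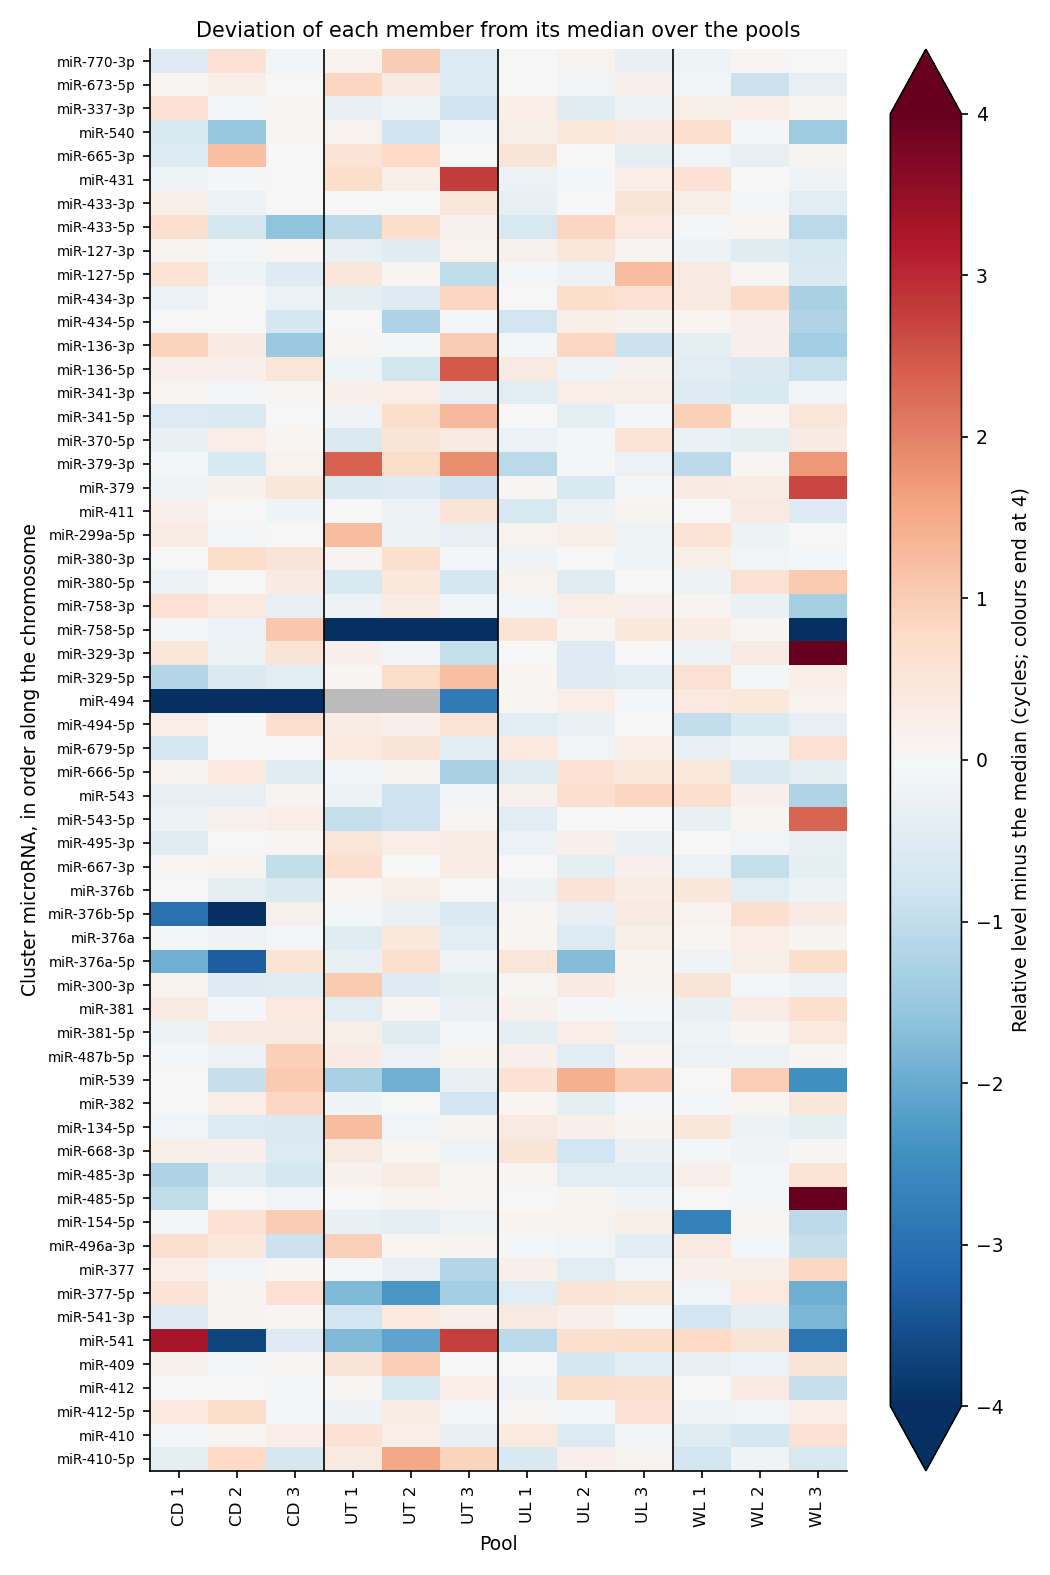
Relative level minus the member's median over the pools (colour, cycles, ending at 4) for the 60 members in chromosome order (rows) and the 12 pools (columns). Grey marks the 2 missing values of miR-494. Among the darkest cells are miR-494 in the CD pools, miR-758-5p in UT 1 to 3 and WL 3, and single values such as miR-329-3p and miR-485-5p in WL 3, while the UL columns are pale.

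Markers of the tissue and of other cell types were read as median relative levels. The 27 assays of adipocyte and fat stroma microRNAs had a median of 3.21 and the 2 endothelial ones 7.22, above the cluster's -1.72. The medians were 3.67 for 3 erythroid assays, 2.46 for 8 epithelial, 0.89 for 7 leukocyte, -0.58 for 15 neural, -0.88 for 10 of testis and epididymis, -2.70 for 10 muscle and -3.09 for 2 liver assays. The summed level of the neural list, the tissue type in which the cluster is best known, ranged from 4.07 to 5.2 for CD, 5.01 to 5.14 for UT, 4.16 to 4.86 for UL and 4.27 to 4.95 for WL. That of the testis and epididymis list ranged from 4.77 to 5.39 in UL and 4.27 to 4.78 in WL, where it lay below the CD pools, and the median difference of WL from CD was -0.26, with 3 of 10 above 0. The epithelial list had a median difference of 0.36 in WL and -0.13 in UL. Their part in the members' differences was not tested.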

How the data were processed

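The authors' threshold cycles (Ct) are not normalized, per the file headers, and a second deposited table holds normalized values. The deposited normalized values are ratios that equal 2 to the power of Ct minus a constant for each pool, so they grow with later cycles. Ct values were used here, and the ratios with the sign turned served as an alternative. The sources used here do not give the PCR platform or the Ct threshold. Of 507 assays, 1 repeated row and 2 reference RNAs were set aside, leaving 504 microRNAs, with no filter on low values. Differences in relative level were fitted in R 4.3.3 with lmFit and eBayes of limma 3.58.1, two-sided, in 1 model of the 4 groups, with Benjamini-Hochberg adjustment over 504 microRNAs and a threshold of 0.05. Missing values were left missing. The script was tested on simulated data. The number of pools limits the precision.

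Named members are, per high-fat group, those past the threshold plus those of smallest unadjusted p to make 5, their opposite arms, the 6 highest and 3 lowest members, and members with a missing value. The members, lists and tests were chosen with earlier results of these data known.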

Additional observations from a re-analysis of the deposited data

How the results depend on the processing

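Over 29 other settings (28 for the F test), the number of members called stayed within 1.5 times the reported count in 14 settings for WL against CD, 15 for UL, 11 for UT, 22 for UL against UT, 29 for WL against UL, 24 for WL against UT and 20 for the F test. The same count can stand for another member. Without CD 3 the 1 member called in WL and in UL was miR-376b-5p and not miR-494. Without CD 1 or CD 3 the 1 member called in UT was not miR-758-5p. For WL against CD the reported 1 became 0 with scaling to U6-snRNA and RNU-43 (10 pools), Ct of 35 or later set to missing, missing values set to the highest Ct, microRNAs measured in all pools only, the 2 groups alone, a trended robust variance, and without UT 2 and WL 3 together, an alternative chosen after seeing the data. For UL against CD it became 0 under the same settings except the first and the last, and with Ct of 35 or later set to 35. For UT against CD the reported 1 became 3 with U6-snRNA and RNU-43 or without UT 2 and WL 3. It became 2 with scaling to the median microRNA, the 2 groups alone or weights per pool. It became 0 with missing values set to the highest Ct, complete microRNAs only or miR-592-3p and miR-758-5p exchanged. That exchange, too, was picked from the data. The reported 0 became 1 for UL against UT and WL against UT and 2 for the F test with U6-snRNA and RNU-43. It became 1 for UL against UT with the 2 groups alone, and 1 for the F test with RNU-43 or unscaled Ct. With weights per pool it became 2 for UL against UT, 1 for WL against UT and 3 for the F test. Without UT 2 and WL 3 it became 2, 2 and 3. Leaving out 1 pool gave 0 to 1 members for WL and UL against CD, 0 to 2 for UT against CD, UL against UT, WL against UT and the F test, and 0 for WL against UL. Of 430 values of named members, 376 kept direction and side of the threshold, 42 lost it, 10 passed it and 2 reversed: miR-758-5p in UT with the exchange (0.13) and miR-494 in UT with missing values at the highest Ct (-1.26). With the replicate block, 0 members were called in WL, UL and UT against CD (adjusted p 0.0783 and 0.0757 for miR-494 and 0.0665 for miR-758-5p). Same-numbered pools correlated at -0.27 to 0.26, over 0.1 in 7 of 18 pairs, and differently numbered pools at -0.35 to 0.31. Correlations around group means of 3 pools cannot decide whether the numbers pair the pools, and the labels do not say. The cause of these changes was not tested, except that complete microRNAs only leaves out miR-494, the member called in WL and UL.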
